A study of Mus musculus with 8 samples.

Results

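The mRNA abundance of 10 genes of the CCN matricellular family and of YAP signaling was followed in mouse notochord-derived cells (NDCs), the cells that form the notochord of the embryo and later the nucleus pulposus (NP) of the intervertebral disc. They were chosen by name: 5 CCN genes (Cyr61, Ctgf, Nov, Wisp1 and Wisp2, also called Ccn1 to Ccn5), the coactivators Yap1 and Wwtr1 with their DNA-binding partner Tead1, and the YAP targets Ankrd1 and Amotl2. All 10 were among the 43346 gene identifiers counted, and 9 of them had enough reads to be tested. RNA came from 4 litters at embryonic day 12.5 (E12.5) and 4 litters at postnatal day 0 (P0), the start and the end of the change from notochord to NP. All litters were Shh-cre;ROSA:YFP, and no treatment is listed for either stage. The Cre driven by Shh switches on YFP in Shh-expressing cells and in all their progeny, so YFP marks a lineage and not a present cell state. The embryos or pups of a litter were pooled into 1 sample, so the spread given is between litters. At E12.5 whole notochords were dissected into TRIzol, whereas at P0 NP cells were shaken out of bisected lumbar and thoracic discs and sorted for YFP. Stage, isolation method and the region of the spine sampled therefore cannot be told apart in any comparison that follows.

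CCN proteins are secreted into the extracellular matrix, where they bind integrins, proteoglycans and growth factors rather than serving as structural fibres. YAP and TAZ, the product of Wwtr1, are coactivators that enter the nucleus when the Hippo kinases are inactive or when cells spread on stiff matrix, and there bind TEAD factors to switch on genes such as Cyr61, Ctgf, Ankrd1 and Amotl2. In the disc, Ctgf is known as a product of notochordal cells that promotes matrix synthesis. An mRNA level does not measure YAP activity, which is set largely by phosphorylation and location of the protein.

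The letters that TEAD factors read, GGAATG or CATTCC on the other strand, were looked for on both strands of the 250 bases upstream of the RefSeq start sites on GRCm38.p6. An entry was at hand for 5 of the genes, namely Cyr61, Yap1, Wwtr1, Amotl2 and Ankrd1, and all 5 held at least 1 match, against 12.6% of 32851 promoters of the same length. Ctgf, Nov, Wisp1, Wisp2 and Tead1 had no entry, and whether having an entry depended on the match is not known. The count therefore cannot show that the letters were more frequent in the chosen genes. The 30 bases around each match are shown 5′ to 3′ on the strand of the gene, with the match in capitals, because TEAD factors are the DNA-binding partners of YAP and TAZ.
Cyr61, 103 bases upstream, chr3:145650071-145650100, minus strand: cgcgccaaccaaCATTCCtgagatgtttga
Amotl2, 65 bases upstream, chr9:102717727-102717756, plus strand: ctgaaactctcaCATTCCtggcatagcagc
Ankrd1, 210 bases upstream, chr19:36120037-36120066, minus strand: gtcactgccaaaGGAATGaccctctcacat
Ankrd1, 123 bases upstream, chr19:36119950-36119979, minus strand: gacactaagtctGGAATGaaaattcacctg
Yap1, 141 bases upstream, chr9:8004720-8004749, minus strand: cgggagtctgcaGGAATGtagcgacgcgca
Wwtr1, 136 or 170 bases upstream of its 2 starts, chr3:57576029-57576058, minus strand: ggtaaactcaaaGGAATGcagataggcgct
A match is a description of the letters and not evidence that a factor was bound. The distances are to the RefSeq starts, and Gencode M21 annotates exons inside some windows: all 250 bases of the Ankrd1 window, 136 of the Amotl2 window, 17 of the Yap1 window and 34 of the second Wwtr1 window lie in annotated exons, and 0 of the Cyr61 window. The CArG box, which serum response factor (SRF) reads, had no match in these windows, and 1.47% of all promoters held it. The whole 250-base window of Cyr61, at chr3:145649986-145650235 on the minus strand, is given because this gene is a standard readout of YAP.
Cyr61 upstream window: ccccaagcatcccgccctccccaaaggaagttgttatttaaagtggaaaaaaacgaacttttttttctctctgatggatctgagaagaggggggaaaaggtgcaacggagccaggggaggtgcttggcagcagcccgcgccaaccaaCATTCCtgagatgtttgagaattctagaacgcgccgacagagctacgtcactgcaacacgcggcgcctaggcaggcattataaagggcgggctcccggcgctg

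The libraries held 4442775 to 8904050 reads on genes. In the E12.5 litters NDP10.2 and NPD9.2, 22.6% and 24.6% of reads fell on genes, against 32.6% in NPD3 and 33.7% in NPD4. Reads ambiguous between genes made up 16.3% and 17.5% in NDP10.2 and NPD9.2, against 11.6% in NPD3 and 10.6% in NPD4. The part of this difference between libraries in the levels that follow was not tested. Abundance is given in CPM, the reads of a gene scaled to a common library size by TMM, and 3 reads were worth 0.337 to 0.675 CPM before that scaling, a floor that covers counting error only. The notochord marker T (brachyury) lay between 242 and 942 CPM at E12.5 and between 574 and 2323 CPM at P0, whereas Noto did not exceed 0.433 CPM in any library. T did not pass the test between the stages (adjusted p = 0.117 by edgeR). Of 12 notochord markers tested, 4 were lower at P0, namely Shh (-7.14 on the log2 scale), Nog (-4.94), Foxa1 (-2.23) and Sox5 (-1.99). Higher at P0 were 2, Krt19 (1.74) and Cd24a (1.33). Markers of other cells moved with stage. All 12 leukocyte markers were higher at P0, although these cells were sorted for YFP. Their sum was 69.1 to 188 CPM across E12.5 litters, and it reached 5313 in NPD26, 6148 in NPD27, 8687 in NPD28 and 986 CPM in NPD30, the 4 litters of P0. Sums of 10 osteoblast markers rose from 291–1443 to 3950–13409 CPM, carried mostly by Col1a1 (235–1272 to 2845–11487 CPM). Of the 8 tested, 7 were higher at P0 and Runx2 did not pass (-0.40 on the log2 scale, adjusted p = 0.438). Bglap2 and Dmp1 were at 0 in every E12.5 library, and Bglap2 did not exceed 0.589 CPM at P0. Sums of 8 sclerotome markers fell from 176–228 to 21.3–41.5 CPM. Sums of 13 notochord, 8 mural, 8 endothelial, 6 annulus and tendon and 8 chondrocyte markers ran over 2329–5126, 158–445, 85.5–174, 76–277 and 1552–6523 CPM at E12.5 and 2172–7741, 145–425, 35–125, 423–1461 and 1751–7719 CPM at P0. The rise of the annulus and tendon sum was carried by Fmod (51.4–256 to 403–1415 CPM), while Scx was lower (-1.31 on the log2 scale, adjusted p = 0.0186). The mural and chondrocyte sums overlapped although 5 of 8 and 5 of 6 tested markers passed, among them Notch3 (lower, -3.74) and Col10a1 (higher, 3.20). The E12.5 litter NPD4 stood apart with 1962 CPM of 8 neural markers, against 124 to 187 CPM in the other E12.5 litters and 338 to 892 CPM at P0. The litter NPD30 had the fewest leukocyte transcripts and the most T of the P0 litters, and 9 of the 10 genes described here were highest there among the P0 litters. The share of all genes that were highest there was not computed, so this count is not shown to be particular to the 10 genes. Because NPD30 stood apart, log2 fold changes of the tested members are also given without NPD30 and with NPD30 as the sole P0 litter.

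Of the 9 genes tested, 5 differed in mRNA abundance between the stages at an adjusted p under 0.05, and the same 5 had no overlap between the litters of the stages. Nov and Wisp2 were higher at P0, and Yap1, Tead1 and Amotl2 were lower, while Cyr61, Ctgf, Wisp1 and Wwtr1 did not pass. Among all 15467 genes tested, 27.9% passed the same threshold, 16% as higher and 12% as lower at P0, and 29.9% had litters that did not overlap. With the E12.5 litters NDP10.2 and NPD9.2 left out together 3 of the genes passed, and the share of all genes that passed fell as well, to 15.2%. The median log2 fold change, given throughout as P0 over E12.5, was -0.80 for the 9 genes and 0.04 for all genes tested. In these bulk samples, fewer cells that express a gene and less of its mRNA per cell cannot be told apart.

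**Figure D1:**
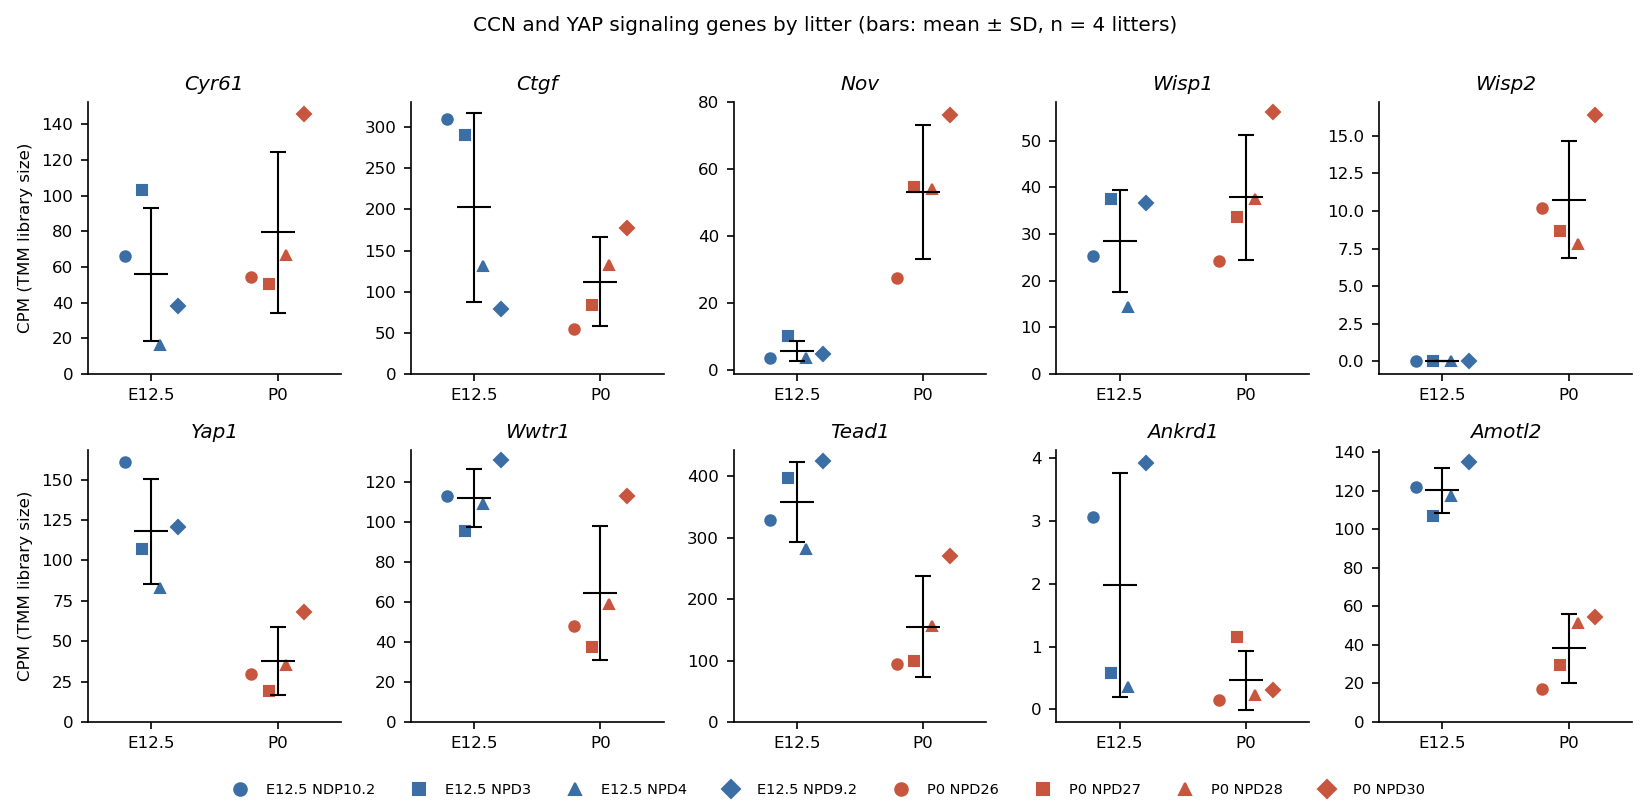
mRNA abundance in CPM on TMM library sizes of the 10 genes in each E12.5 litter (blue) and each P0 litter (red), with a separate linear axis from 0 for each gene and bars for mean ± SD over 4 litters. Nov and Wisp2 are higher in every P0 litter, Yap1, Tead1 and Amotl2 are lower in every P0 litter, and the P0 litter NPD30 (red diamond) is the highest P0 litter for every gene but Ankrd1.

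Within the CCN family, the early YAP target Cyr61 (ENSMUSG00000028195.3, chr3:145646976-145649981) showed no detectable difference. At E12.5 its mRNA stood at 66.1 CPM in NDP10.2, 103 in NPD3, 16.2 in NPD4 and 37.9 in NPD9.2, and at P0 it stood at 54.3 CPM in NPD26, 50.3 in NPD27, 66.7 in NPD28 and 146 in NPD30. The litters are given in this order from here on. The E12.5 litters alone spanned a wider fold than the difference between the stages, and 3 P0 litters lay inside their range. The means were 55.8 ± 37.6 and 79.2 ± 44.8 CPM (SD, n = 4), a log2 fold change of 0.51 ± 0.53 (SE) with an adjusted p of 0.523 by edgeR. Without NPD30 the log2 fold change was -0.0035, so that litter alone set the direction, and with NPD30 as the sole P0 litter it was 1.43 (adjusted p = 0.382).

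Ctgf (ENSMUSG00000019997.7, chr10:24595442-24598683), the CCN gene best known in notochordal cells, had a lower mean at P0 and did not pass the test. The E12.5 litters had 310, 290, 131 and 78.9 CPM, against 54.6, 83.5, 132 and 178 CPM at P0. NDP10.2 and NPD3 were high and the other E12.5 litters fell within the P0 range, with 3 of the 4 P0 litters inside the E12.5 range. The means were 203 ± 115 and 112 ± 54.3 CPM (SD, n = 4), with a log2 fold change of -0.85 ± 0.48 (SE) and an adjusted p of 0.216 by edgeR. It was -1.21 without NPD30 (adjusted p = 0.0917) and -0.14 with NPD30 as the sole P0 litter (adjusted p = 0.942). An antisense transcript, Gm15270, overlaps 23.2% of the exon length of Ctgf, and no more than 5 reads were counted on it in any library. If strand was not used in counting, reads in the shared stretch could be ambiguous and left out for both genes. The low count on Gm15270 therefore does not show whether Ctgf was undercounted.

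The balance between these genes within a library did differ. The log2 ratio of Cyr61 to Ctgf read -2.22, -1.49, -2.99 and -1.05 at E12.5, and -0.01, -0.73, -0.98 and -0.29 at P0. Every P0 litter lay above every E12.5 litter, although -0.98 in NPD28 was close to -1.05 in NPD9.2. The mean ratio rose by 1.44 on the log2 scale, from -1.94 ± 0.85 to -0.50 ± 0.44 (SD, n = 4; two-sided exact permutation test, p = 0.0286, and 0.0286 adjusted over the 4 ratios computed). That p is the smallest that 4 litters against 4 can give. A ratio of this kind does not depend on library scaling, and it does not show which of the genes moved.

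Nov (ENSMUSG00000037362.8, chr15:54745702-54754039), which encodes CCN3, a family member often antiproliferative and opposed to CCN2 in cartilage, was a minor transcript at E12.5 and rose at P0. The E12.5 litters held 3.77, 10.1, 3.75 and 4.92 CPM and the P0 litters 27.5, 54.7, 54.0 and 76.4 CPM. The lowest P0 litter exceeded the highest E12.5 litter, NPD3. The mean went from 5.65 ± 3.05 to 53.2 ± 20.0 CPM (SD, n = 4), 9.4-fold higher, with a log2 fold change of 3.23 ± 0.42 (SE) and an adjusted p of 0.000492. Nov kept its call whichever of the 8 litters was dropped (2.97, without NPD30, to 3.65), and with NPD30 as the sole P0 litter the log2 fold change was 3.80.

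Wisp2 (ENSMUSG00000027656.7, chr2:163820861-163833146) encodes CCN5, which lacks the C-terminal cystine-knot module of the other family members. No read was counted on it in any E12.5 library, whereas the P0 litters had 65, 60, 66 and 108 reads, which is 7.77 to 16.4 CPM. All P0 litters were thus far above the level that 3 reads would give at E12.5, which is 0.598 CPM on average. Taking that level as the limit of detection, Wisp2 was at least 18-fold higher at P0, where the mean was 10.8 ± 3.88 CPM (SD, n = 4), with an adjusted p of 0.000406. The lowest P0 litter was at least 10.5-fold above the highest limit of any E12.5 library, and Wisp2 kept its call whichever litter was dropped. Fitted against 0 reads, which gives no bound, its log2 fold change was 9.07, 8.77 without NPD30 and 9.56 with NPD30 as the sole P0 litter.

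Wisp1 (ENSMUSG00000005124.5, chr15:66891320-66923201), a Wnt-inducible gene known from osteogenic cells, had 25.2, 37.5, 14.3 and 36.6 CPM at E12.5, against 24.2, 33.7, 37.6 and 56.2 CPM at P0. The stages overlapped, NPD28 lay level with the highest E12.5 litter and NPD30 stood above it. The means were 28.4 ± 11 and 37.9 ± 13.4 CPM (SD, n = 4), with a log2 fold change of 0.42 ± 0.35 (SE) and an adjusted p of 0.406. It was 0.13 without NPD30 (adjusted p = 0.821) and 1.04 with NPD30 as the sole P0 litter (adjusted p = 0.258). The log2 ratio of Wisp1 to Wisp2 fell by 4.61, from 6.39 ± 0.64 to 1.78 ± 0.42 (SD, n = 4). It restates the 0 reads of Wisp2 at E12.5, which fixed the outcome of its permutation test, so no p is given. It was nevertheless among the 4 ratios over which p was adjusted. Its size depends on the prior count of 2 (-6.57 with a prior count of 0.5). The osteoblast marker sums rose between the same stages, and their part in the levels of Wisp1 and Wisp2 was not tested.

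Divided by exon length, the summed abundance of the 5 CCN transcripts had close means at both stages, at 106 ± 57.3 CPM per kb at E12.5 and 109 ± 50.1 CPM per kb at P0 (SD, n = 4), but its composition was not. Ctgf made up 50.5% to 79.4% of the sum in the E12.5 litters and 29.3% to 42.4% in the P0 litters, with no overlap. Cyr61 took 13.9–34.3% at E12.5 and 29.8–41.2% at P0, so that it equalled Ctgf at P0 on average (35.4% and 35.3%). The share of Nov went from 0.895–3.14% to 14.7–22.8%, that of Wisp1 from 3.09–12% to 5.63–7.24%, and that of Wisp2 from 0 to 3.71–8.15%. The summed level ranged more than 2-fold within either stage, whereas the shares of Ctgf and Nov separated the stages in every litter. Shares within a sum constrain each other, and they are given as a description without a test. The sum leaves out Wisp3, the sixth CCN gene.

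**Figure D2:**
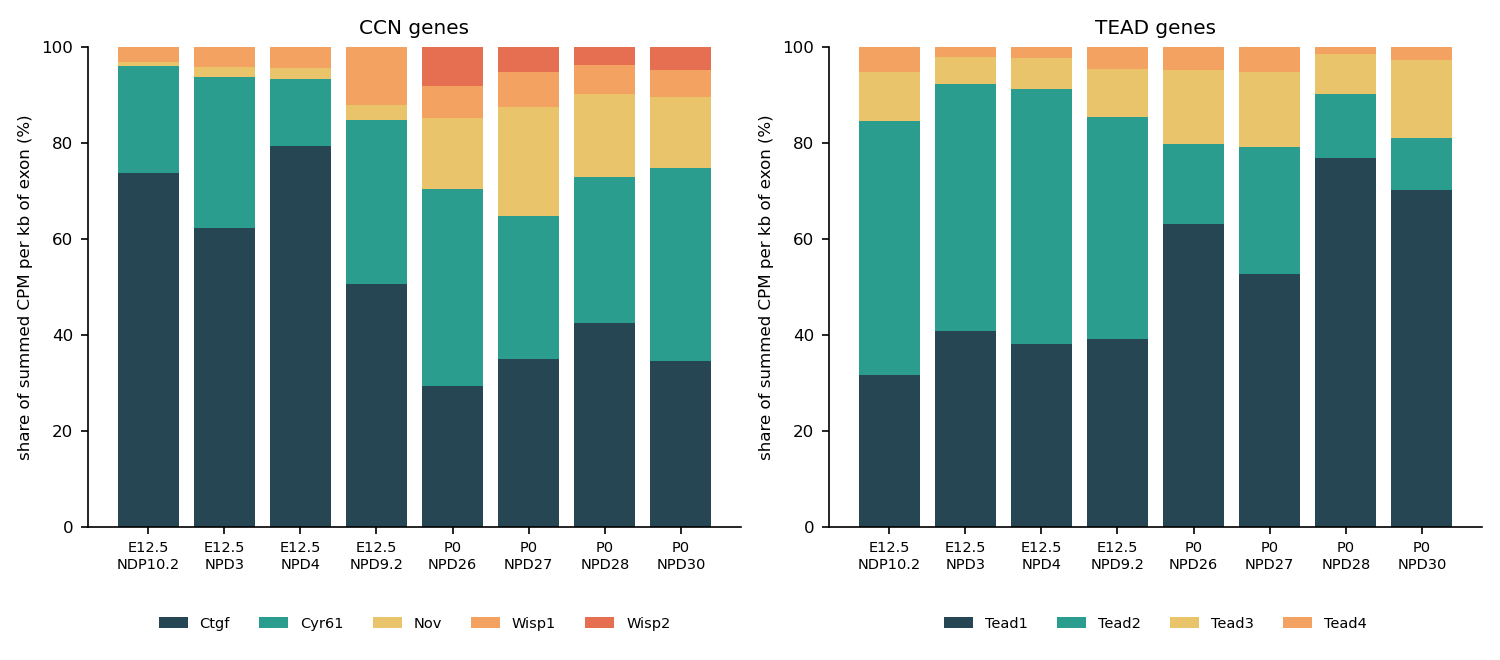
Share of each of the 5 CCN genes chosen (left, without Wisp3) and of each TEAD gene (right) in the summed CPM per kb of exon of its panel, as stacked bars of 100% for each of the 8 libraries. At E12.5 Ctgf and Tead2 are the main transcripts, with at least 50.5% and 46.3%, and at P0 no Ctgf share exceeds 42.4% while Tead1 holds 52.6% to 76.9%.

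Among the regulators, Yap1 (ENSMUSG00000053110.9, chr9:7931999-8004596) was lower at P0. Its levels were 161, 107, 83.1 and 121 CPM at E12.5, against 29.4, 18.9, 35.4 and 67.9 CPM at P0. The highest P0 litter, NPD30, remained below the lowest E12.5 litter, NPD4. The mean fell from 118 ± 32.7 to 37.9 ± 21.1 CPM (SD, n = 4), with a log2 fold change of -1.64 ± 0.38 (SE) and an adjusted p of 0.0083. The call held whichever litter was dropped, but not when NDP10.2 and NPD9.2 were left out together (-1.36, adjusted p = 0.087). An antisense transcript, Gm20416, overlaps 1.25% of its exon length. With NPD30, the litter with the fewest leukocyte transcripts, as the sole P0 sample the log2 fold change was -0.75 (adjusted p = 0.367), and without NPD30 it was -2.11.

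Wwtr1 (ENSMUSG00000027803.10, chr3:57455649-57575910), which encodes TAZ, did not pass. Levels of 113, 95.4, 109 and 131 CPM at E12.5 stood against 48.1, 37.6, 59.1 and 113 CPM at P0. NPD26, NPD27 and NPD28 lay below all E12.5 litters, and NPD30 lay inside their range. The means were 112 ± 14.8 and 64.5 ± 33.6 CPM (SD, n = 4), with a log2 fold change of -0.80 ± 0.33 (SE) and an adjusted p of 0.0925. Without NPD30 it was -1.25 with an adjusted p of 0.00322, and with NPD30 alone it was 0.06, so the call for Wwtr1 rested on a single litter. NPD30, the highest P0 litter for Wwtr1, was the lowest for the leukocyte marker sum (986 CPM against 5313 to 8687 CPM) and for the endothelial sum (35 CPM). It was the highest P0 litter for the notochord (7741 CPM), osteoblast (13409 CPM) and chondrocyte (7719 CPM) sums. The same held for the annulus and tendon (1461 CPM) and mural (425 CPM) sums. The part of any of these cells in the levels of Wwtr1, Yap1 and Tead1 was not tested.

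The ratio of Yap1 to Wwtr1 was steadier than either gene within P0. On the log2 scale it read 0.52, 0.16, -0.39 and -0.11 at E12.5, and -0.70, -0.98, -0.73 and -0.73 at P0. NPD30, which was the highest P0 litter for both genes, had the same ratio as NPD28. The mean ratio fell by 0.83, from 0.04 ± 0.39 to -0.79 ± 0.13 (SD, n = 4; exact permutation p = 0.0286, the smallest possible), without overlap. Relative to Wwtr1, Yap1 was thus less abundant in every P0 litter than in any E12.5 litter.

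Tead1 (ENSMUSG00000055320.12, chr7:112679318-112906807), a DNA-binding partner of both coactivators, was lower at P0 but close to the threshold. It measured 329, 398, 282 and 425 CPM at E12.5, against 93.6, 100, 157 and 271 CPM at P0. NPD30 at 271 CPM fell just short of NPD4 at 282 CPM. The mean fell from 358 ± 64.9 to 155 ± 82.1 CPM (SD, n = 4), with a log2 fold change of -1.21 ± 0.35 (SE) and an adjusted p of 0.0251. The adjusted p rose to 0.058, 0.0622, 0.0655, 0.0694 and 0.052 when NPD3, NPD9.2, NPD26, NPD27 or NPD28 was left out, and with NPD30 as the sole P0 litter the log2 fold change was -0.36 (adjusted p = 0.672). Without NPD30 it was -1.65 (adjusted p = 0.00131).

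The other TEAD genes place this in context. Tead2, expressed early in embryos, went from 140–194 to 8.65–17.9 CPM, 13.5-fold lower (log2 fold change -3.75 ± 0.30 SE, adjusted p = 5.27e-05), and NPD30 at 14.9 CPM did not stand apart. Tead4 was also lower (-2.18, adjusted p = 0.0133) and Tead3 did not pass (-1.27, adjusted p = 0.0535). At E12.5, Tead4 stood at 14.4 and 13 CPM in NDP10.2 and NPD9.2, against 5.27 and 4.71 CPM in NPD3 and NPD4. Tead3 split along the same litters, with 53.1 and 54.3 CPM against 27.3 and 23.2 CPM. Summed per kb of exon, the 4 TEAD transcripts went from 70.8 ± 11.2 to 17.1 ± 7.77 CPM per kb (SD, n = 4), and the lowest E12.5 litter at 54.8 was above the highest P0 litter at 28.5. Tead2 held 46.3–53.3% of that sum at E12.5 and 10.9–26.6% at P0, whereas Tead1 went from 31.6–40.8% to 52.6–76.9%.

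The log2 ratio of Tead1 to Tead2 read 0.76, 1.17, 1.01 and 1.26 at E12.5, and 3.39, 2.46, 3.98 and 4.16 at P0. It rose by 2.45, from 1.05 ± 0.22 to 3.50 ± 0.76 (SD, n = 4; exact permutation p = 0.0286, the smallest possible), with no overlap. Tead1 was thus lower at P0 and yet the main TEAD transcript there. In CPM it exceeded Tead2 in every E12.5 litter as well. Tead2 led at E12.5 only after division by exon length, which is 13570 bases for Tead1 and 4788 for Tead2.

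**Figure D3:**
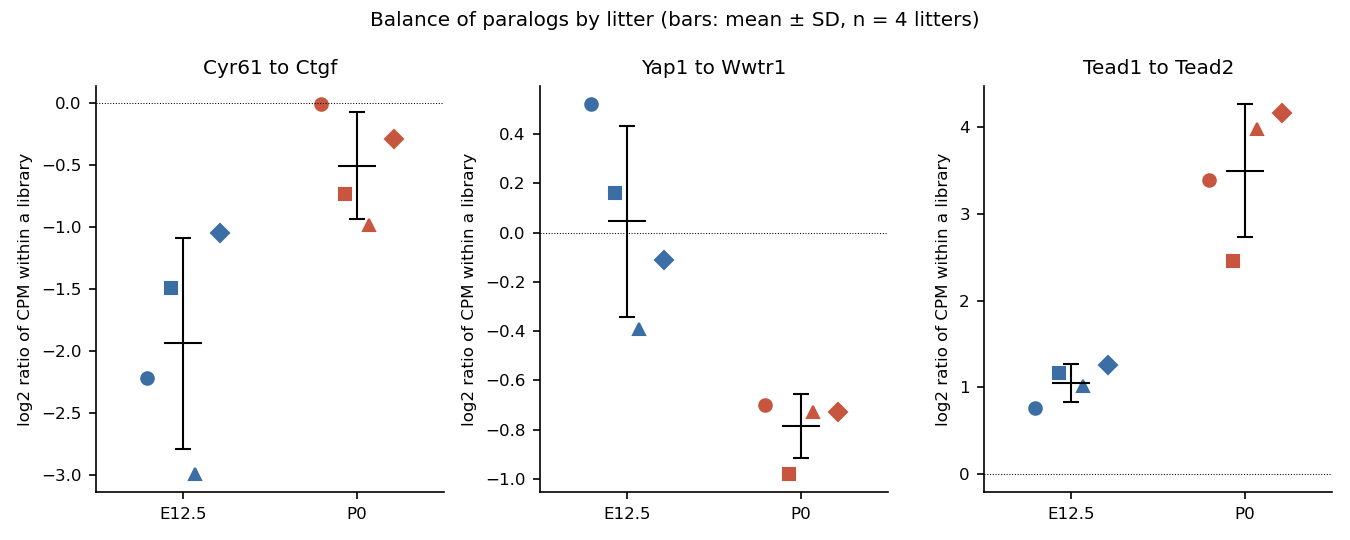
Log2 ratio of CPM between 2 related genes within each library for Cyr61 to Ctgf, Yap1 to Wwtr1 and Tead1 to Tead2, with E12.5 litters in blue, P0 litters in red and bars for mean ± SD over 4 litters. All ratios separate the stages: the first and the last are higher at P0, by 1.44 and 2.45, and Yap1 to Wwtr1 is lower by 0.83.

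Of the targets, Amotl2 (ENSMUSG00000032531.11, chr9:102716672-102733418), an angiomotin that is induced by YAP and in turn holds it outside the nucleus, was lower at P0. The E12.5 litters lay close together at 122, 107, 117 and 135 CPM, against 17.1, 29.7, 51.4 and 54.4 CPM at P0. The groups were far apart, with NPD28 and NPD30 alike. The mean fell from 120 ± 11.8 to 38.2 ± 17.8 CPM (SD, n = 4), with a log2 fold change of -1.65 ± 0.34 (SE) and an adjusted p of 0.00467. The call held whichever litter was dropped, and the log2 fold change was -1.91 without NPD30 and -1.10 (adjusted p = 0.111) with NPD30 as the sole P0 litter.

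Ankrd1 (ENSMUSG00000024803.8, chr19:36111961-36120099), a stretch-responsive ankyrin-repeat gene best known in heart muscle, was near the limit of detection. Its reads numbered 13, 3, 3 and 16 at E12.5 and 1, 8, 2 and 2 at P0. These counts were too few for a test, and NPD3 and NPD4 had fewer reads than the P0 litter NPD27. The means were 1.99 ± 1.79 and 0.462 ± 0.465 CPM (SD, n = 4), a difference not detectable at this depth. Whether the changes of the targets Amotl2, Cyr61, Ctgf and Ankrd1 differed from each other was not tested, other than by the ratio of Cyr61 to Ctgf.

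Of the other Hippo genes, a list of 30 upstream kinases, scaffolds, YAP-binding proteins and TEAD partners without the members, 17 passed, 3 as higher and 14 as lower at P0, or 56.7% of those tested. The median log2 fold change was -0.85. The lower genes included the protocadherin pair Fat4 (289 ± 62.4 to 16.8 ± 1.25 CPM, log2 fold change -4.10, adjusted p = 1.63e-05) and Dchs1 (145 ± 48.3 to 11.9 ± 2.57 CPM, -3.61, adjusted p = 8.69e-05), which bind each other at cell contacts. Amot, the relative of Amotl2, went from 103 ± 42.4 to 5.85 ± 0.879 CPM (-4.13, adjusted p = 6.36e-05). Each of these had P0 litters within a narrow range, and NPD30 was inside or at the edge of it.

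Proteins that hold YAP back were among the lower genes as well. Ptpn14, a phosphatase that binds YAP, was at 99.5 ± 25.4 and 15.5 ± 5.9 CPM (-2.68, adjusted p = 0.00044), and Wwc1, which encodes KIBRA, at 21.8 ± 1.91 and 7.06 ± 1.99 CPM (-1.63, adjusted p = 0.00215). The scaffold gene Dlg5, which is not counted among these proteins here, was at 149 ± 36.6 and 47.6 ± 14.4 CPM (-1.64, adjusted p = 0.00196). Vgll2, a TEAD cofactor known from muscle, was at 16.3 ± 8.41 and 0.401 ± 0.308 CPM (-5.29, adjusted p = 0.000392). The lower genes therefore included inhibitors of YAP as well as partners of TEAD factors. Sclerotome marker sums fell between the same stages, in all 8 markers, and their part in the lower levels of Hippo genes, Yap1 and Amotl2 was not tested.

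Most of the core kinase cassette did not pass. Lats1, Lats2, Stk3, Sav1 and Mob1b had log2 fold changes between 0.02 and 0.30. The genes that were higher were Taok3 (28.2 ± 3.75 to 103 ± 34 CPM, 1.87, adjusted p = 0.00092), Mob1a (86.5 ± 15.3 to 189 ± 51.4 CPM, 1.13, adjusted p = 0.00849) and Stk4 (50.7 ± 3.25 to 124 ± 74.1 CPM, 1.29, adjusted p = 0.0237), a kinase, a kinase cofactor and the MST1 kinase. All were lowest among the P0 litters in NPD30, at 63.8, 118 and 55.2 CPM, where the leukocyte marker sum was lowest too, and the part of leukocytes in these results was not tested.

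**Figure D4:**
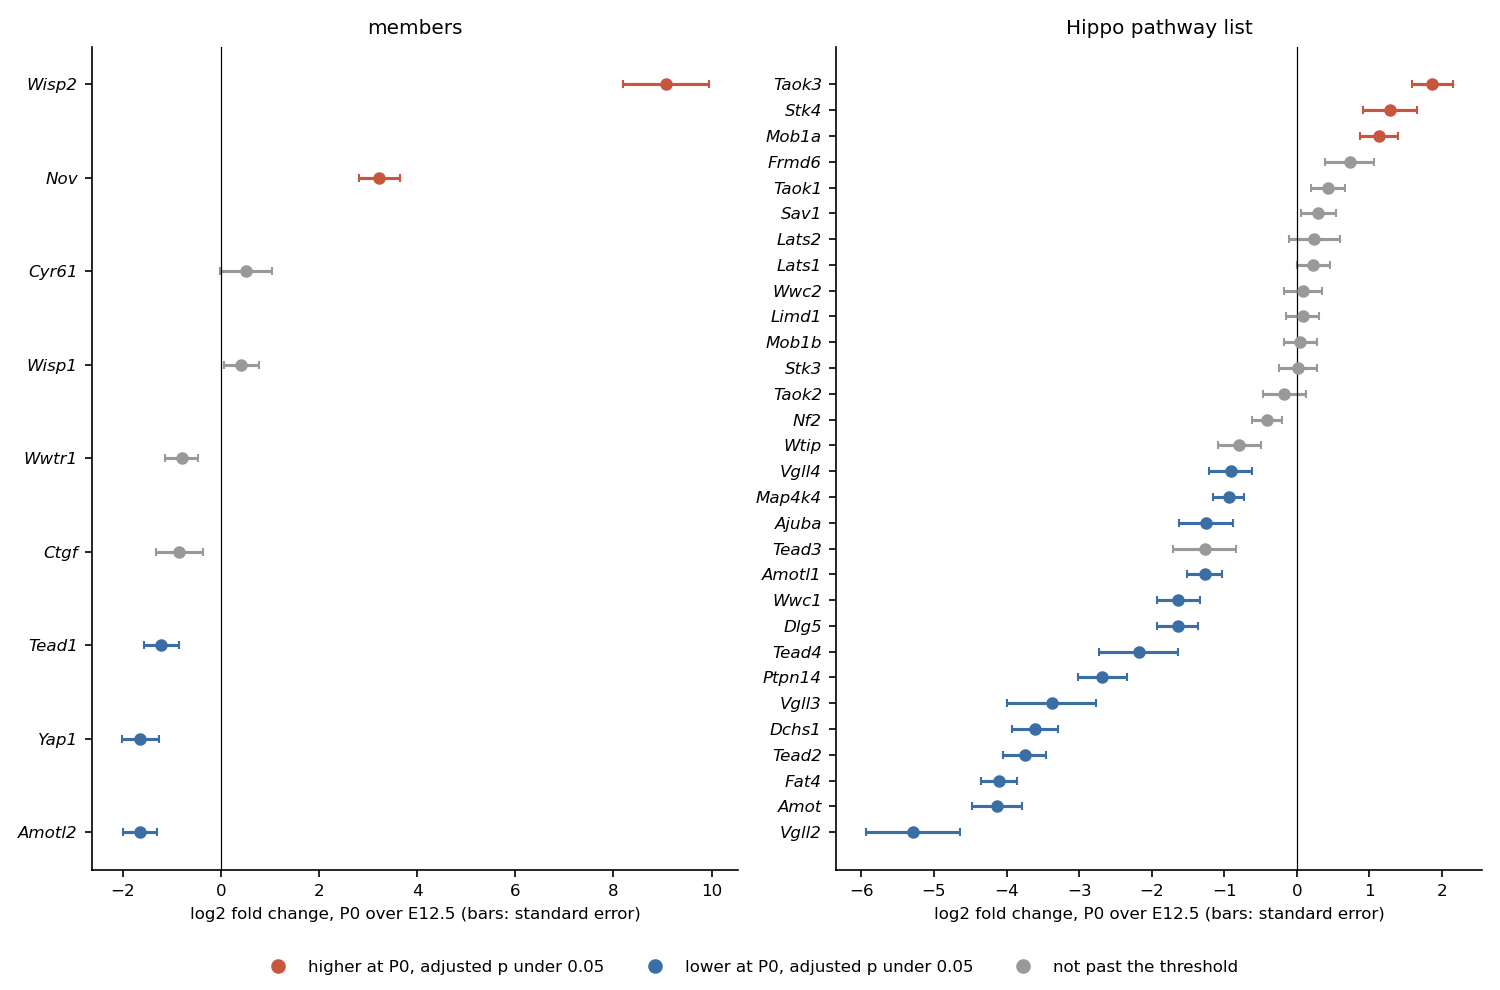
Log2 fold change of P0 over E12.5 from edgeR, with its standard error as bars, for the 9 genes tested (left, headed members) and the 30 genes of the Hippo list (right), coloured red or blue where higher or lower at an adjusted p under 0.05 and grey otherwise. Of the Hippo genes 14 are lower and 3 higher, with the core kinases Lats1, Lats2 and Stk3 near 0, and the value of Wisp2 is fitted against 0 reads at E12.5 and is no bound.

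A signature of 22 YAP/TAZ target genes, which includes Cyr61, Ctgf, Ankrd1 and Amotl2, had 21 genes tested, 3 higher and 7 lower at P0 (47.6%), with a median log2 fold change of -0.09. The lower genes beside Amotl2 were Foxf2, a transcription factor (49.5 ± 14.9 to 0.588 ± 0.608 CPM, -6.33, adjusted p = 0.000192), Igfbp3 (-2.40, adjusted p = 0.00368), Arhgef17 (-1.60, adjusted p = 0.00752), the BMP-binding protein gene Crim1 (-1.23, adjusted p = 0.0137), F3, which encodes tissue factor (-2.73, adjusted p = 0.0176), and Ptpn14. Higher were the kinase gene Nuak2 (2.00, adjusted p = 0.00583), the secreted factor gene Ccdc80 (1.57, adjusted p = 0.00861) and Nt5e, which encodes the ectonucleotidase CD73 (1.98, adjusted p = 0.0162). The signature genes thus moved in both directions, and 5 passed without NDP10.2 and NPD9.2, where 15.2% of all genes tested passed.

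Of 10 cell-surface receptors that bind CCN proteins, 4 were higher (40%) and 0 lower by edgeR, with a median log2 fold change of 0.45. Among all genes tested, 27.9% passed, with 16% higher at P0. The proteoglycan gene Sdc4 went from 35.1 ± 16.3 to 136 ± 36.5 CPM (1.96, adjusted p = 0.00385), the integrin genes Itgb5 from 38.4 ± 10.3 to 115 ± 39.2 CPM (1.58, adjusted p = 0.00395) and Itga5 from 46.7 ± 15.3 to 116 ± 45.7 CPM (1.31, adjusted p = 0.0147). Itgam, an integrin gene of myeloid cells, also rose (5.62, adjusted p = 0.00413), with 26.2 CPM in NPD30 and up to 298 CPM in the other P0 litters, so it followed the order of the leukocyte marker sums between NPD30 and the rest. Itgb5 was likewise lowest among the P0 litters in NPD30, at 70.6 CPM, whereas Sdc4 and Itga5 were highest there, at 180 and 173 CPM, and the part of leukocytes in these receptor results was not tested. The main integrin partner Itgb1 did not pass (0.37, adjusted p = 0.224), nor did Itgav (-0.35, adjusted p = 0.354). Itgb1 nevertheless had no overlap between the stages, at 268 to 313 CPM at E12.5 and 331 to 418 CPM at P0. Itga5 passed although its lowest P0 litter, at 64.5 CPM, lay just below its highest E12.5 litter, at 64.7 CPM.

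Cytoskeletal targets of SRF and its cofactors MRTF, a second route to Cyr61 and Ctgf, showed 1 gene higher and 3 lower of 13 tested (30.8%), near the share of all genes. Tagln was higher (1.81, adjusted p = 0.0245), and Myl9 (-1.66, adjusted p = 0.0186), Tpm2 (-1.43, adjusted p = 0.0333) and Actg2 (-2.79, adjusted p = 0.0413) were lower. The number of calls was 1 or 2 when any single litter was left out, and 0 without NDP10.2 and NPD9.2, where 15.2% of all genes tested passed.

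In a list of immediate early genes, a class to which Cyr61 belongs by its rapid induction, 9 of 17 tested were higher (52.9%) and 0 lower. Their median log2 fold change was 1.34, and 16% of all genes tested were higher at P0. Fos went from 8.32 ± 8.98 to 224 ± 95 CPM (4.76, adjusted p = 0.00189), Fosb reached 17 to 135 CPM from at most 5.07 CPM (4.91, adjusted p = 0.0035), and Junb went from 6.88 ± 3.05 to 73.8 ± 29.7 CPM (3.44, adjusted p = 0.00032). Also higher were Zfp36 (3.88, adjusted p = 0.000692), Dusp1 (2.46, adjusted p = 0.00138), Ier3 (3.31, adjusted p = 0.00223) and Klf6 (0.88, adjusted p = 0.0273). The list and its counts also held the heat shock genes Hspa1a, which was not tested, and Hspa1b, which was higher (3.15, adjusted p = 0.0163). Summed over the 18 genes the level went from 367–765 to 1061–1820 CPM at P0, where cells were dissociated and sorted before lysis. Among the P0 litters, Junb, Zfp36, Dusp1, Ier3, Klf6 and Btg2 were lowest in NPD30, the litter with the fewest leukocyte transcripts, while Fosb and Hspa1b were highest there, as Cyr61 was. The part of dissociation and of leukocytes in the levels of these genes, Cyr61 and Ctgf was not tested.

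Among the genes whose pattern over the 8 libraries was closest to Cyr61, by the root mean square difference of centred log2 CPM among 15466 genes, were Zfp385b (0.27) and Casp12 (0.31). Like Cyr61, both were lowest in NPD4 and highest in NPD30. For Ctgf they were Plcb1 (0.34), Gm28151 (0.35) and Tubb1 (0.35), and the last 2 were low transcripts at no more than 4.49 CPM. None of these 5 genes passed the test between stages by edgeR.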

How the data were processed

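Total RNA of an integrity number above 7 was made into TotalScript libraries and sequenced as single-end reads. The authors aligned the reads to GRCm38.p3 with STAR 2.4.0j, and deposited raw counts per Gencode M4 gene made with HTSeq, without normalization. Whether strand was used in counting is not given in the sources used here, so antisense overlaps are stated. Between 10.6% and 17.5% of reads at E12.5 and 7.1% to 10.5% at P0 were ambiguous between genes. Rows that name no gene were left out of library sizes. Of 43346 identifiers, 42462 were matched to a symbol and positions through Gencode M21 on the same build, and exon lengths are the union of its exons.

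The stages were compared in R 4.3.3 with edgeR 4.0.16 (filterByExpr with a minimum count of 10 and total of 15, TMM, robust quasi-likelihood F-test) and Benjamini-Hochberg adjustment over 15467 genes at 0.05. The SE is the size of the log2 fold change divided by the square root of F. CPM and ratios used TMM library sizes, and log2 CPM a prior count of 2. Ratios were tested by two-sided exact permutation. The scripts were tested on simulated data with known changes. There edgeR recovered 16.4% of 2-fold, 71.6% of 4-fold and 90.9% of 8-fold changes. A gene that did not pass is therefore not shown to be unchanged. Alternatives were DESeq2 1.42.0, limma-voom 3.58.1, other scaling, no filter, dispersions without the robust option, removal of 50 hemoglobin and mitochondrial genes, and litters left out. Leaving out NPD26, NPD27 and NPD28 was chosen after seeing the data. The members, gene lists and markers were chosen with earlier results of these data known. Every member, of each list up to 8 called genes per direction by adjusted p, and the 3 genes nearest to Cyr61 and to Ctgf were named by rule, of which 1 is not reported here. Genes that did not pass, Tead3, Tead4, Btg2, single marker genes and the values of single litters were added after their values were seen.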

Additional observations from a re-analysis of the deposited data

Results flagged for a closer look

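The log2 ratio of Yap1 to Wwtr1 in the P0 litter NPD27 was -0.98, while the other P0 litters lay between -0.73 and -0.70. The gap to the nearest litter was 0.89 of the whole range of the 4 litters, above the 95% critical value of Dixon's test. Chance gives about 1 such litter in 20 groups, and 28 groups of 4 litters were examined. NPD27 also had the lowest Yap1 of all litters, 18.9 CPM, and the lowest Wwtr1, 37.6 CPM.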

How the results depend on the processing

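Every member that passed kept its direction under all scalings, filters and tests, and Nov and Wisp2 passed in every alternative run. Upper quartile normalization moved the median of all genes to -0.11 from 0.04, and 47.5% of calls were then higher against 57.1%. With the E12.5 litters NDP10.2 and NPD9.2 left out, 2581 in place of 4321 genes passed, 3 members (Yap1 at -1.36, adjusted p = 0.087, and Tead1 at -1.16, adjusted p = 0.124, were lost), 5 genes of the YAP/TAZ signature and 0 SRF/MRTF targets. With NPD30 as the sole P0 litter, assumed to vary like the E12.5 litters, 1054 genes passed, 2 members, 7 Hippo genes, 4 signature genes, 2 receptors, 1 SRF/MRTF target and 5 immediate early genes, and Wwtr1 changed sign to 0.06. When single litters were left out, Cyr61 ranged from -0.0035 to 0.96 and 1 to 2 SRF/MRTF targets passed. The ratios cannot pass then, since 3 litters against 4 give no exact p under 0.0571. No paired analysis was possible because the litters of the stages share no number, animal or batch in the labels. Depth limited Ankrd1, which without the filter was at -2.03 with an adjusted p of 0.206, and at E12.5 Wisp2.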

Other observations

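The sixth CCN gene, Wisp3, was not among the genes chosen. Its mRNA stood at 3.12 ± 2.25 CPM per kb at E12.5 and 0.952 ± 0.43 CPM per kb at P0 (SD, n = 4). Its log2 fold change was -1.68 with an adjusted p of 0.0746 by edgeR, and 34% of its exon length overlaps Tube1 on the other strand.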
